A study of Mus musculus with 12 samples.

Results

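Kat8 encodes MOF, the lysine acetyltransferase that places acetyl groups on lysine 16 of histone H4, and the 10 genes described here are Kat8 and the genes of 9 of its partners. The members were chosen by name: Kansl1, Kansl2, Kansl3, Mcrs1, Phf20 and Wdr5 of the NSL complex, and Msl1, Msl2 and Msl3 of the MSL complex, 10 of the 21887 protein-coding genes that RefSeq places on the assembled chromosomes of GRCm38.p6 (mm10). A chromatin immunoprecipitation and sequencing (ChIP-seq) study mapped where MOF sits on DNA in mouse bone marrow cells of the strain C57BL/6. The sorted cells were stem cells (HSC; LSK without CD34 and Flt3), at 15000 cells, and the progenitors of megakaryocytes and red cells (MEP; lineage-negative and cKit-positive, without Sca-1, CD34, IL7r and CD16/32), at 30000 cells. Both came from wild-type animals and from animals of the genotype Mof -/+, heterozygous for Mof, the older name of Kat8. The fifth list is GATA1, an erythroid transcription factor, in HPC7, a progenitor line with the genotype wild type, grown with stem cell factor. The marrow was taken from several bones. Neither the age of the animals, nor the kind of Mof allele, nor the number of animals behind a library is stated in the labels. Each list is 1 library, so no value below has a replicate error and no test between genotypes or cell types was made. Peak lists measure no RNA, so the sorted populations were not checked against marker genes.

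MOF works in 2 assemblies. In the MSL complex, MSL1 is the scaffold, MSL2 a ubiquitin ligase and MSL3 a chromodomain protein, and this form is known for acetylating lysine 16 of histone H4. In the NSL complex, KANSL1 is the scaffold, joined by KANSL2, KANSL3, MCRS1, the methyl-lysine reader PHF20 and WDR5, and this form is known for sitting at the promoters of housekeeping genes. A peak is a position at which a caller found more ChIP reads than in a background. It was counted for a gene if any base of it lay inside the gene or within 5 kb of either end.

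The sequences below are the promoter windows, 250 bases before to 50 after the first start that RefSeq lists, of the 5 members that had a wild-type MOF peak at that start. They are shown as the sequence next to those summits, and are written 5′ to 3′ on the gene's strand. The windows are chr7:127912267-127912566 on the plus strand for Kat8, chr15:99251912-99252211 on the minus strand for Mcrs1 and chr1:36369132-36369431 on the minus strand for Kansl3. Those of Kansl2 and Phf20 are chr15:98534220-98534519 on the minus strand and chr2:156196397-156196696 on the plus strand. Capitals mark the bases within 150 bp of the wild-type summit, which is that of HSC for the first 4 genes and that of MEP for Phf20. The Mcrs1 summit falls on base 139 of its run and the Kansl3 summit on base 264. The summits of the other 3 lie beyond the last base shown.
Kat8: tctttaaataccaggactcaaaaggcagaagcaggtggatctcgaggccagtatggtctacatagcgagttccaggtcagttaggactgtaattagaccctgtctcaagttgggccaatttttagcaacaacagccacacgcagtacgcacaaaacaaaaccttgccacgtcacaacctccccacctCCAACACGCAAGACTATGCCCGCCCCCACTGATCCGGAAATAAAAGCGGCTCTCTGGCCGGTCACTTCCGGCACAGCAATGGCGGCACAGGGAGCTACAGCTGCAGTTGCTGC
Mcrs1: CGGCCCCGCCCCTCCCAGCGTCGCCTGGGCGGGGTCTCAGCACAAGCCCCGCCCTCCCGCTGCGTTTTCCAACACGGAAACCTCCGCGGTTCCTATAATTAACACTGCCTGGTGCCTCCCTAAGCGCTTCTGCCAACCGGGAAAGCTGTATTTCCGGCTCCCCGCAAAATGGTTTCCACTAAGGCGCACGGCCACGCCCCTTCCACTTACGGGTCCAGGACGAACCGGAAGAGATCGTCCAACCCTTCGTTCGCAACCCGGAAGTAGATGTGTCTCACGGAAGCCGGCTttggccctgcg
Kansl3: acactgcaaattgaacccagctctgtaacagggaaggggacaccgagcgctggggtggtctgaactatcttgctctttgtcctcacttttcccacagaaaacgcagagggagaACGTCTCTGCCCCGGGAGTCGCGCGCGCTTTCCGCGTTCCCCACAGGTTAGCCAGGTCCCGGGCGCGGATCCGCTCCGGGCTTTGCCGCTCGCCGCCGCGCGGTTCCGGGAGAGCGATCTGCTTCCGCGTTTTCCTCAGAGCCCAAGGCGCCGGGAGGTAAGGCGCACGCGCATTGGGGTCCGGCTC
Kansl2: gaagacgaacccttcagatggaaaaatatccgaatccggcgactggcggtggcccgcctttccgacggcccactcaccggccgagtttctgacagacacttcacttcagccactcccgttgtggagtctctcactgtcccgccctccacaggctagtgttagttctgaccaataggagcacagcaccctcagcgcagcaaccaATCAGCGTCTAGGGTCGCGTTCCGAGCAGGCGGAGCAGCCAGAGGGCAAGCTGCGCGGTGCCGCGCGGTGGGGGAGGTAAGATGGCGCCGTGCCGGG
Phf20: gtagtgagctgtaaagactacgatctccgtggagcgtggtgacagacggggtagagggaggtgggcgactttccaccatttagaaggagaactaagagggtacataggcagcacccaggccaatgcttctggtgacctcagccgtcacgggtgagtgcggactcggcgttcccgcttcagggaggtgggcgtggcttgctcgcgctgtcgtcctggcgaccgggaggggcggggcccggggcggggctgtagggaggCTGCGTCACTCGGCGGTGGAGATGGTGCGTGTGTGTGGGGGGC

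Peaks were concentrated in Kat8. The 10 genes together had 23 peaks in the 5 lists, of which 18 belonged to Kat8 and 5 to its partners. In wild-type HSC, 5 of the 10 members had a MOF peak (Kat8, Kansl2, Kansl3, Mcrs1 and Msl1), against 9.42% of all protein-coding genes. Wild-type MEP had 2 such members, Kat8 and Phf20, against 4.01%. Over the 5 lists together it was 6 of 10, against 13.1%. Kat8 was the only member with a peak in Mof -/+ HSC (background 0.777%), in Mof -/+ MEP (0.123%) and in the GATA1 list (1.31%). Kansl1, Wdr5, Msl2 and Msl3 had no peak in any list. With 10 genes, a single gene moves each share by 10 percentage points, and the number of reads behind each list is unknown. The call depends on how many peaks a list holds, which was 1876 in wild-type HSC, 338 in Mof -/+ HSC, 898 in wild-type MEP, 64 in Mof -/+ MEP and 477 for GATA1.

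Kat8 lies on chromosome 7 from 127912517 to 127925838 on the plus strand, between Bckdk, which encodes a kinase of branched-chain amino acid breakdown, and Prss8, which encodes a membrane-anchored serine protease. Its 18 peaks fell into 5 sites, numbered here from the start of the gene. Exons were not used here, so the sites are given by their distance from the first listed start. The annotated span of Prss8, from 127925717 to 127930149, overlaps the last stretch of Kat8. The strand of Prss8 was not used here, so 127925717 is not given as its start.

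Site 1 was called in all 5 lists, just inside the gene. Counted by gene, and not by a shared position, 9 protein-coding genes, or 0.0411%, had a peak in all 5 lists. Bckdk is among them through this same site. The wild-type summits were at 127912604 in HSC (−log10 value 34.4, rank 5 of 1876) and at 127912654 in MEP (78.1, rank 10 of 898). In Mof -/+ HSC the interval ran from 127912403 to 127912781 with its summit at 127912655 (−log10 q 29.3, column 5 score 292, 13.9-fold enrichment, rank 85 of 338). In Mof -/+ MEP it ran from 127912488 to 127912788 with its summit at 127912644 (88.7, score 887, 7.00-fold, rank 2 of 64). The GATA1 interval, from 127912478 to 127912796, was 319 bp wide. The 4 MOF summits lay within 51 bp of each other, 87 to 138 bp after the start, and all 3 intervals reached into the promoter window printed above. The Kat8 window was 1 of 39 overlapped by a Mof -/+ HSC interval (0.223%). It was the only window, of 17492 with a listed start, that a Mof -/+ MEP interval overlapped (0.00572%), and 1 of 8 for GATA1 (0.0457%).

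Site 2 lay 2.89 to 2.93 kb after the start and was called in 4 lists, all but Mof -/+ HSC. Its summits were at 127915427 in wild-type HSC (24.5, rank 11), at 127915437 in wild-type MEP (58.2, rank 22) and at 127915448 in Mof -/+ MEP (98.4, score 983, 11.6-fold). That last interval, from 127915236 to 127915610, ranked 1 of 64. The GATA1 interval ran from 127915222 to 127915597. The 3 summits spanned 21 bp.

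Site 3, 7991 to 8003 bp after the start, was called in both MEP lists and for GATA1, and in neither HSC list. The wild-type summit was at 127920512 (24.2, rank 88 of 898). The Mof -/+ interval, from 127920382 to 127920642, had its summit at 127920508, 4 bp away (88.3, score 883, rank 3 of 64). Its fold enrichment of 14.5 was the second highest of that list. The GATA1 interval ran from 127920405 to 127920635.

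Site 4, 9.68 to 9.69 kb after the start, was called in Mof -/+ MEP and for GATA1 and had no wild-type summit. The Mof -/+ interval from 127922095 to 127922305 had a −log10 q of 17.5 (score 175, 7.63-fold, rank 15 of 64), the lowest of the 5 Kat8 intervals in that list. The GATA1 interval ran from 127922100 to 127922300.

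Site 5, at the far end, was the widest and was called in 4 lists, again all but Mof -/+ HSC. The wild-type summits were at 127924655 in MEP (135, rank 2 of 898) and 127924846 in HSC (22.6, rank 14). The Mof -/+ MEP interval, from 127924323 to 127925321, was 999 bp wide with its summit at 127924875 (58.5, score 584, 6.56-fold, rank 6). The GATA1 interval, from 127924321 to 127925658, was 1338 bp wide and ranked 10 of 477 by width. Here the 3 MOF summits were 220 bp apart.

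**Figure D1:**
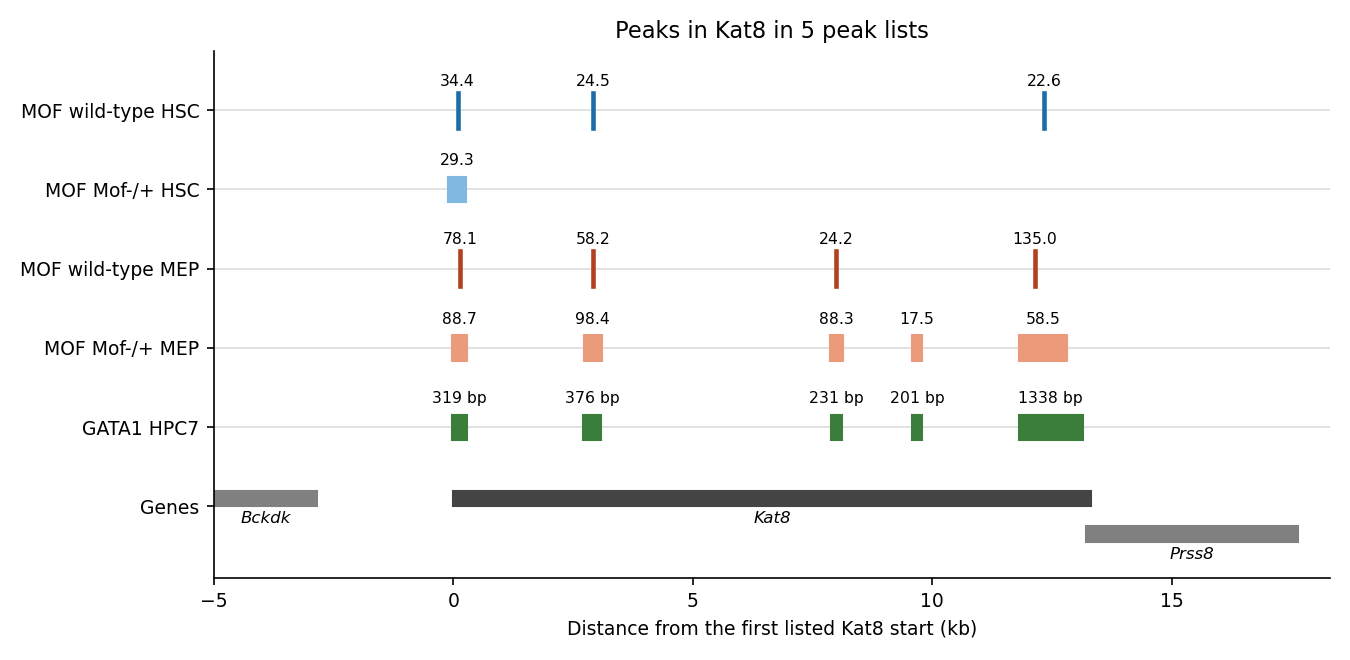
Peaks in Kat8 by distance from its first listed start (kb). Each row is 1 list; upright ticks are wild-type summits of 1 bp, bars are intervals drawn to scale, and the numbers are the authors' −log10 value per peak or, for GATA1, the width. The 5 GATA1 intervals stand over all 5 sites, and Mof -/+ HSC has a bar at site 1 only.

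The order of the sites differed between the lists. By −log10 value, wild-type HSC had site 1 first, wild-type MEP site 5 and Mof -/+ MEP site 2. These values rank peaks within a list, and wild-type and Mof -/+ files differ in layout, so a value in one was not set against a value in another. Between genotypes Kat8 went from 3 called sites to 1 in HSC and from 4 to 5 in MEP. The lists held 1876 peaks in wild-type and 338 in Mof -/+ HSC, and 898 in wild-type and 64 in Mof -/+ MEP. Kat8 is also the gene that is heterozygous in Mof -/+ animals, and the kind of allele is not stated. With 1 library on each side neither difference could be tested. An effect of genotype on MOF binding could not be told apart from list length or from a change in the gene itself.

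Kat8 lay above the median −log10 value of each MOF list. In Mof -/+ MEP its 5 intervals were 7.81% of the list (95% Wilson interval 3.38 to 17.0, counting error only), with a median −log10 q of 88.3 against 9.06 in the other 59 intervals. The highest of those 59 was 61.7. By fold enrichment the Kat8 intervals ranked lower in that list, at 24, 3, 2, 19 and 30 of 64 for sites 1 to 5, and site 5 (6.56-fold) was near the list's median of 6.45. In wild-type MEP the 4 summits had a median of 68.1 against 5.59 in the other 894, and all were among the first 100 of the list. In wild-type HSC the 3 summits, with a median of 24.5 against 5.27 in the other 1873, were all among the first 15. In Mof -/+ HSC the single interval had 29.3 against a median of 7.66 in the other 337. It ranked 85 of 338 by −log10 q and 5 by fold enrichment. The GATA1 list carries no score, and the median width in Kat8 was 319 bp against 263 bp elsewhere.

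**Figure D2:**
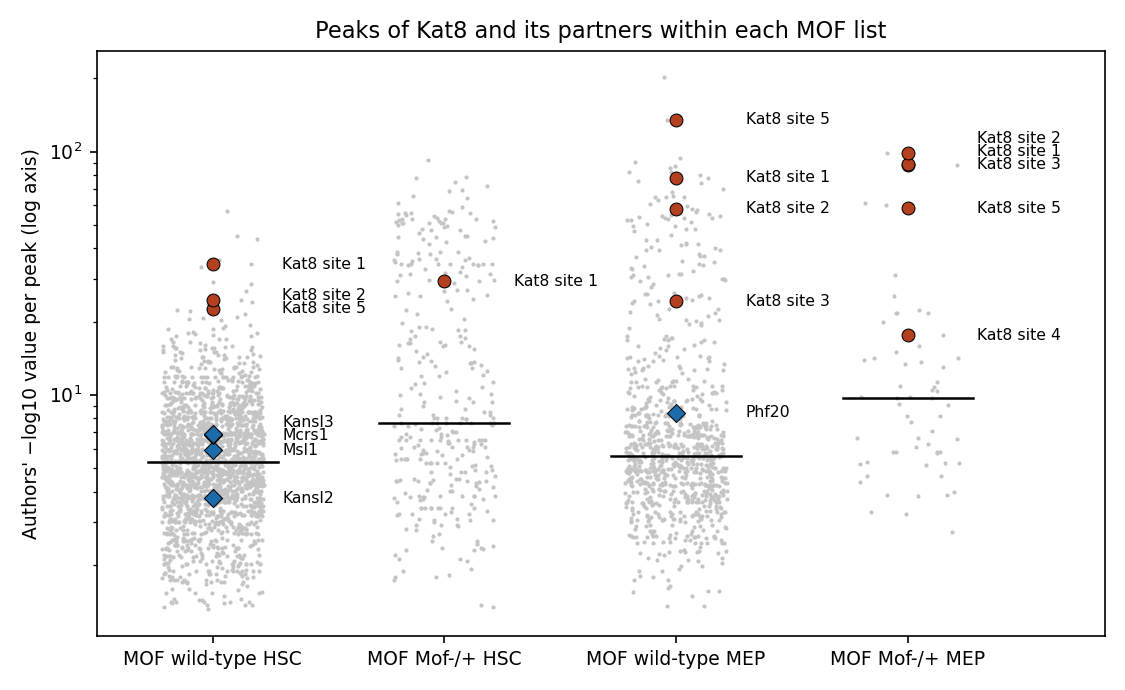
The authors' −log10 value of every peak in the 4 MOF lists (log axis). Grey points are all peaks of a list, black bars the median of the list, red circles Kat8 sites and blue diamonds the partners; Kat8 lies above the median of all 4 lists and the partners lie between 3.76 and 8.42.

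No other protein-coding gene had as many peaks over the 5 lists together as Kat8 with 18. Kat8 was the only gene with 3 or more intervals in Mof -/+ MEP and the only one with 3 or more in the GATA1 list. In wild-type MEP 1 gene had more peaks than its 4. In wild-type HSC 3 genes had more than its 3, and 14 genes, Kat8 included, had 3. In Mof -/+ HSC 22 genes had more than its 1, and 148 genes, Kat8 included, had 1. Within 200 kb, Kat8 itself left out, the Mof -/+ lists and the GATA1 list had 0 peaks. Wild-type HSC had 3 peaks there, among them that of Setd1a (127777214, 13.0), and wild-type MEP had 1. Over the whole of chromosome 7 the lists held 130 peaks in wild-type HSC, 55 in wild-type MEP, 11 in Mof -/+ HSC, 7 in Mof -/+ MEP and 36 for GATA1.

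Each of the 18 Kat8 peaks had a counterpart in at least 1 other list, and all 13 MOF peaks in Kat8 overlapped a GATA1 interval. Over whole lists the share of MOF peaks that overlapped a GATA1 interval was 2.35% in wild-type HSC (44 of 1876), 12.2% in wild-type MEP (110 of 898), 37.9% in Mof -/+ HSC (128 of 338) and 57.8% in Mof -/+ MEP (37 of 64). These shares count MOF peaks, and in Mof -/+ HSC many of them fall in the same few long GATA1 intervals. The longest is 38291 bp on chromosome 9, and others of 29980 and 14527 bp lie outside the assembled chromosomes. Outside Kat8, only 57 of 127 overlapping pairs in Mof -/+ HSC and 20 of 32 in Mof -/+ MEP joined 1 interval with 1 interval. The GATA1 antibody and the cell line differed from those of the MOF lists, and what this overlap comes from was not tested. Which input library served as background for which list is not given in the sources used here.

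The edges of the Kat8 intervals were compared between lists. For each Mof -/+ interval that overlapped a GATA1 interval, the larger of the differences between the starts and between the ends was taken. In Mof -/+ MEP it was 10 bp at site 1, 14 bp at site 2, 23 bp at site 3, 5 bp at site 4 and 337 bp at site 5, where the starts were 2 bp apart and the ends were not. The median of these 5 was 14 bp. Elsewhere some long GATA1 intervals overlap several MOF intervals, so only pairs in which each interval met 1 interval of the other list were set beside Kat8, a choice made after seeing the data. The 20 such pairs of Mof -/+ MEP had a median of 76.5 bp and ranged from 4 to 22783 bp. They still include short MOF intervals inside long GATA1 intervals of 29980 and 14527 bp, with differences of 22783 and 7540 bp. Differences of at most 20 bp were found for 3 of the 5 Kat8 pairs and for 2 of these 20. With all 32 pairs elsewhere the median was 354 bp. In Mof -/+ HSC the single Kat8 pair differed by 75 bp, more than the median of 42 bp in the 57 other such pairs. It was less than the median of 1247 bp over all 127 pairs elsewhere. Differences of at most 20 bp were found for 10 of the 57 and not for the Kat8 pair.

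**Figure D3:**
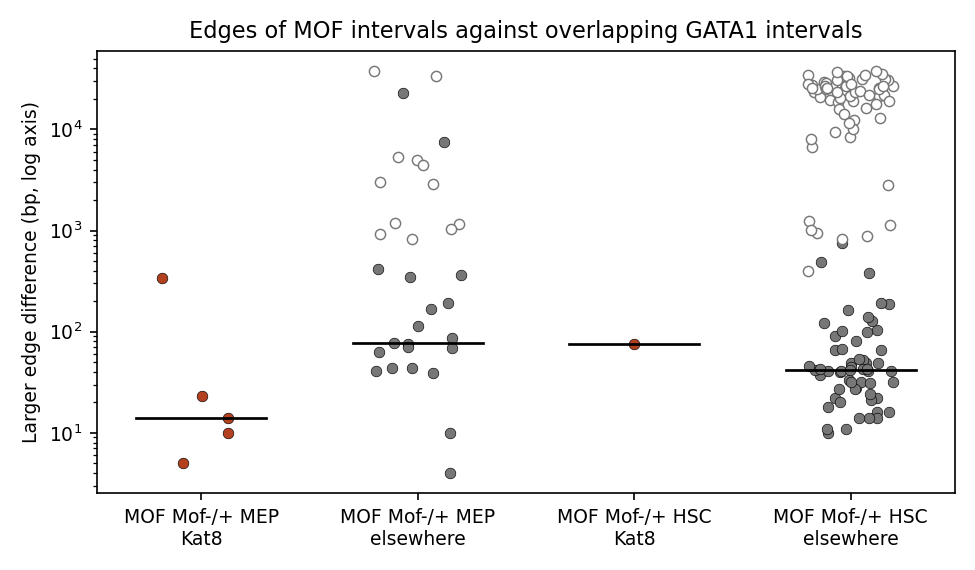
Larger of the start and end differences (bp, log axis) between a Mof -/+ MOF interval and an overlapping GATA1 interval. Red points are the pairs in Kat8 and grey points all other pairs; open points are pairs in which an interval met several of the other list, and bars are medians without these; in Mof -/+ MEP the Kat8 pairs lie at 5 to 23 bp apart from site 5 at 337 bp.

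Of the NSL genes, Kansl3, Mcrs1, Kansl2 and Phf20 carried single peaks, each at a start. In wild-type HSC the Kansl3 summit lay on chromosome 1 at 36369168, 13 bp after the listed start (−log10 value 6.87, rank 596 of 1876). Kansl3 encodes a subunit with a hydrolase-like fold. The Mcrs1 summit lay on chromosome 15 at 99252073, 112 bp before the start (6.81, rank 602). MCRS1 is also a subunit of the chromatin remodeller INO80. The Kansl2 summit lay on the same chromosome at 98534166, 103 bp after the start (3.76, rank 1395), below the list's median of 5.27. Kansl2 is annotated to 98534770, so the nearest gene end was 604 bp away.

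In wild-type MEP the Phf20 summit lay on chromosome 2 at 156196804, 157 bp after the start, with a value of 8.42 and rank 224 of 898. None of these 4 peaks overlapped a peak of another list, as was so for most peaks of these lists: 16.5% of wild-type HSC peaks (310 of 1876) and 40.6% of wild-type MEP peaks (365 of 898) did overlap one. No other protein-coding gene end was nearer to any of them. All 4 were within 200 bp of a listed start. In their lists this held for 47.0% of wild-type HSC peaks (854 of 1818, 44.7 to 49.3) and 28.7% of wild-type MEP peaks (241 of 840, 25.7 to 31.8), counted on chromosomes with listed starts. It held for 12.8% of Mof -/+ HSC intervals (37 of 288, 9.47 to 17.2), 1.75% of Mof -/+ MEP intervals (1 of 57) and 1.34% of GATA1 intervals (6 of 448).

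Kansl1 and Wdr5 were the NSL members with no peak. The nearest summit to Kansl1, a gene of 136 kb on chromosome 11, was 1066 kb away in wild-type HSC and 1218 kb in wild-type MEP. That of Wdr5, on chromosome 2 from 27515147 to 27536535, was 604 kb away in wild-type HSC. The WDR5 protein is shared with the complexes that methylate lysine 4 of histone H3.

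The MSL genes had 1 peak between them, and it was closer to another gene. The wild-type HSC summit counted for Msl1 (chromosome 11, 98809777, value 5.92, rank 773) lay 1915 bp beyond the end of Msl1 and 31 bp from an end of Casc3, which encodes a component of the exon junction complex. It lay 11.1 kb from the nearest listed start of Msl1. Msl2, on chromosome 9 from 101074054 to 101104800, had its nearest wild-type HSC summit 431 kb away. Msl3, on the X chromosome from 168651267 to 168674354, had its nearest peak, a wild-type MEP summit, at 362 kb. Mof -/+ MEP had no peak on the X chromosome. So the member peak closest to the limit of 5 kb on the inside was that of Msl1 at 1.92 kb. The closest on the outside were a Mof -/+ HSC interval 16.3 kb from Phf20 (−log10 q 2.62, rank 317 of 338) and a wild-type MEP summit 33.0 kb from Kansl2 (5.63).

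**Figure D4:**
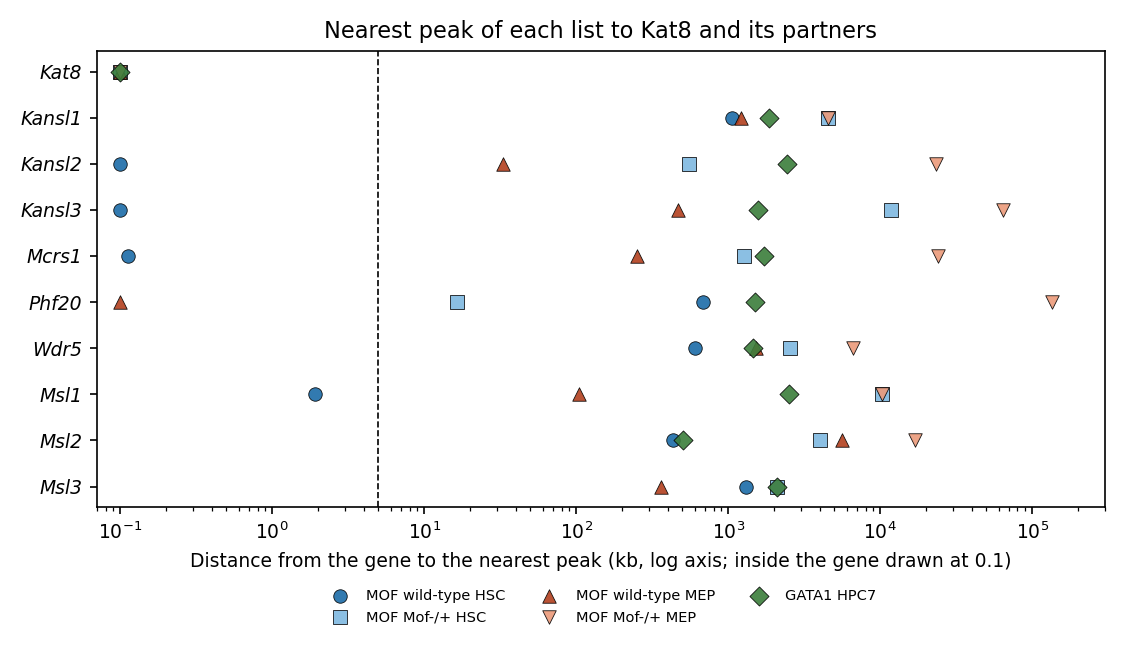
Distance (kb, log axis) from each gene to the nearest peak of each list. Symbols are the 5 lists, peaks inside a gene are drawn at 0.1 kb, and the dashed line marks 5 kb; only Kat8 has all 5 symbols left of it, and Msl3 has no symbol for Mof -/+ MEP.

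Another gene's end was nearer for 10 of the 23 peaks. Of these, 9 were the Kat8 peaks of sites 3, 4 and 5, which lie inside Kat8 but 121 bp closer to the near end of Prss8 than to that of Kat8. The other was the Msl1 peak.

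Apart from Kat8, the promoter windows of the members had more CpG than the median of all windows, Kansl1 only slightly so. Kat8 had 12 CpG in 300 bases and 53% G and C, fewer CpG and less GC than the other 9 members. Their range was 15 CpG in Kansl1 to 36 in Msl3, and 59% in Wdr5 to 79.3% in Msl1. The median was 26 CpG for the members, 13 for all 17492 windows and 25 for the 996 windows that a wild-type HSC peak overlapped. All windows had a median GC of 56.3%, so Kat8 was below both medians of all windows. Members without a peak at a start had 15 (Kansl1), 22 (Wdr5), 26 (Msl2), 28 (Msl1) and 36 (Msl3) CpG, and the partners with one had 24 (Phf20), 26 (Kansl2), 28 (Mcrs1) and 32 (Kansl3). The wild-type HSC peaks overlapped 4 of the 10 member windows (Kat8, Kansl2, Kansl3 and Mcrs1), against 5.69% of all windows. The wild-type MEP peaks overlapped 2 (Kat8 and Phf20), against 1.86%.

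A set of 9 short motifs was looked up on both strands in the member windows. The GC box core GGGCGG was in 9 of the 10, all but Kansl3, against 46.3% of all windows and 74.3% of those with a wild-type HSC peak. The ETS core CCGGAAG was in Kat8 (bases 252 to 258 of the printed run, as its reverse complement) and in Mcrs1 (bases 225 to 231 and 258 to 264), against 11.9% of all windows and 29.2% of those with a wild-type HSC peak. The GATA core GATA, 4 letters, was in Kansl1, Kansl2, Kansl3 and Msl2, against 54.0% of all windows. The Kat8 window did not hold these letters. Most of the GATA1 interval at site 1 lies outside that window and was not searched. The NRF1 pattern (GCGC, any base, TGCGC) was in Kansl3 (bases 276 to 285) and Wdr5 (6.60% of all windows) and GCCATNTT of YY1 in Kansl2 (bases 282 to 289, 6.69%). CCAAT was in 5 members (39.0%) and CANNTG, the E-box, in 3 (68.8%). TATAAA (13.3%) and GAGAGAGA (3.27%) were in 0 members. In the 5 printed windows no match overlapped another. A match of letters is not a bound site.

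Genes that work with or next to these complexes had 10 peaks, all in the wild-type lists. The other lists call so few genes (0.777%, 0.123% and 1.31%) that 0 there is no result about these genes. Of the 13 genes of the SET1 and MLL methyltransferases, which share WDR5, 4 had a peak in wild-type HSC, where the share of all protein-coding genes was 9.42%. Setd1a, a catalytic subunit, had the highest (13.0, rank 82), 175 bp before its start and 135 kb from Kat8. Dpy30, a core subunit, had 4.28, at 78 bp before a start, and Kmt2c had 2.86. The summit counted for Kmt2d (2.64) lay 12 bp from an end of Prkag1. Of the 14 genes of INO80, 2 had a peak in wild-type HSC, Yy1 (5.92) and Nfrkb (2.24), and 1 in wild-type MEP, Ino80e (4.02). The shares of all genes in these 2 lists were 9.42% and 4.01%.

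Of the 4 other acetyltransferases of the MYST family, Kat5 had a peak in wild-type HSC (2.93, 43 bp after a start). The share of all protein-coding genes there was 9.42%. Kat7 had a peak in wild-type MEP (rank 533 of 898, 143 bp after its start), where that share was 4.01%. Kat6a and Kat6b had none. Of the 4 deacetylases Sirt1, Sirt2, Hdac1 and Hdac2, Hdac1 had a summit within 5 kb in wild-type HSC (4.38), against the same 9.42%. But this summit lay 28 bp from an end of Marcksl1. The NSL subunit genes Hcfc1 and Ogt, and the paralogs Kansl1l, Phf20l1, Msl3l2 and Wdr5b, had 0 peaks. Of all protein-coding genes 13.1% had a peak in any list. In groups this small, neither the genes with a peak nor those without are a result about these genes.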

How the data were processed

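Peaks were called by the authors. MACS2, deepTools and Bowtie2 (2.3.0.1) are the named tools, with mm10 as the build, per the submitters' processing notes; the sources used here give no settings or filters. The wild-type MOF lists the authors deposited hold summits of 1 bp with a −log10 value, read as −log10 q because its minimum lies just above 1.30, the −log10 of 0.05. The Mof -/+ lists the authors deposited hold intervals with fold enrichment, −log10 p, −log10 q and a score, which equals 10 times −log10 q without decimals in all 338 and 64 rows. The GATA1 list holds intervals alone and was ranked by width.

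Positions are 1-based. Summits were extended by 150 bp on each side for overlaps of at least 1 bp, and distances were taken from the summit, or from the midpoint for GATA1. Genes, starts and promoter sequences came from RefSeq GRCm38.p6, and all 10 members matched by symbol. Promoter windows were those of the first listed start of a protein-coding gene. Scripts ran in Python 3.11.15 with pandas 2.3.3 and were tested on simulated peaks. All 10 members are named with all their peaks, and of the related lists each gene with a peak. The members and lists were chosen with earlier results of these data known. Intervals on shares are Wilson intervals. Of 12 samples, 7 (6 inputs and H4K16ac in HPC7) were not analysed here. Alternatives were other distances, extensions and peak selections.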

Additional observations from a re-analysis of the deposited data

How the results depend on the processing

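Of 70 recomputed counts, 60 stayed within 1.5 times the reported one. Some of these could not move. All 18 Kat8 peaks lie inside the gene, so shorter distances keep them, and midpoints do not shift wild-type summits of 1 bp. The 60 are therefore no measure of robustness. With genes counted only for peaks inside them, the members with a peak in wild-type HSC were 3 (Kat8, Kansl2 and Kansl3) in place of 5. With a distance of 20 kb, 2 members had a peak in Mof -/+ HSC in place of 1, the second being Phf20. Among GATA1 intervals wider than the median, 3 of the 5 in Kat8 were left. Without MOF peaks that overlap a GATA1 interval, the Kat8 peaks were 0 in all 4 MOF lists, because all 13 overlap one. The members with a peak were then 0 in Mof -/+ HSC, 0 in Mof -/+ MEP and 1 (Phf20) in wild-type MEP. All 18 Kat8 peaks and 0 of the 5 partner peaks overlapped a peak of another list with summits extended by 50 or 500 bp, and with an overlap of at least 50% of the shorter peak. No paired analysis was possible because each list is 1 library and the labels number only the HPC7 inputs, which were not analysed here. Chosen after seeing the data, pairs of 1 interval each lowered the median edge difference outside Kat8 from 1247 to 42 bp in Mof -/+ HSC and from 354 to 76.5 bp in Mof -/+ MEP. Depth is unknown, so a gene without a peak was not shown to lack MOF, and a longer list can call weaker sites.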

Other observations

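Only 9 of the 21887 protein-coding genes (0.0411%) had a peak by the same rule in all 5 lists. Kat8 was 1 of them, with 18 peaks. The others, named after their values were seen, were Zc3h7a with 7 peaks, Jarid2 and Peak1 with 6 each, and Bckdk, Cdk8, Cmss1, Filip1l and Lars2 with 5 each. Bckdk counts because site 1 of Kat8 lies within 5 kb of it, 2940 bp from its end in wild-type HSC. Genes and not places were counted, and whether others of the 9 share a peak was not checked.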
